A study of Mus musculus with 90 samples.

Results

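The genes described here are 8 members of the epidermal growth factor (EGF) receptor system in mouse, chosen by symbol out of 55011 symbols counted. They are the ligands Ereg (epiregulin), Areg (amphiregulin), Hbegf (heparin-binding EGF-like growth factor), Tgfa (transforming growth factor alpha) and Btc (betacellulin), and the receptors Egfr, Erbb2 and Erbb3. The series asked how exercise, a Piezo1 agonist and muscle injury alter muscle mesenchymal stromal cells (MmSCs), and what follows when Piezo1, a stretch-gated cation channel, is floxed in Pdgfra-Cre mice. RNA was counted in 90 libraries of 29 groups, of which 44 libraries were sorted MmSCs, 26 were whole skeletal muscle and 20 were heart or liver.

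MmSCs were sorted from hindlimb muscle as PDGFRa+ Sca1+ CD31- CD45- cells, 1000 to a library. Wild-type mice of 8 to 10 weeks gave 2 cohorts, each with 3 sedentary (SED) libraries. One was set against 3 libraries taken on day 1 after acute exercise (AEX) and the other against 3 libraries after exercise training (EXT). Pdgfra-Cre mice gave 4 groups of 3 libraries, SED and AEX day 1 for each genotype: Piezo1 wild type (labelled WT) and Piezo1 floxed (labelled mutant, "FL" in the plots). Both genotypes also gave 3 MmSC libraries on day 1 after cardiotoxin (CTX), a snake toxin that kills muscle fibres. Sorted MmSCs were briefly cultured with 25 µM Yoda1, an opener of Piezo1, in 2 cohorts. The first had 3 vehicle libraries and 2 libraries at 2 h, all from Pdgfra-Cre Piezo1 wild-type mice. The second had 3 vehicle libraries, 3 at 4 h and 3 at 6 h, with no genotype label. How long the vehicle cells were cultured was not given in the sources used here. Whole tibialis anterior (TA) muscle of both genotypes was taken 1 day (4 libraries each), 3 days and 7 days (3 each) after CTX. Uninjured quadriceps (3 each), uninjured liver (4 each), and heart without injury or 3 days after CTX in skeletal muscle (3 each) completed the set. Both genotypes carry the Cre, which is driven by Pdgfra and so is not confined to muscle. Ages of the Cre mice were not given in the sources used here.

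Total counts ran from 1806248 to 10258234 in the MmSC libraries, from 4051973 to 10226407 for whole skeletal muscle, and between 27461930 and 38376123 for liver and heart. Levels are CPM, read counts scaled to library size within a cohort, given with the SD over libraries. In the sorted cells the summed level of 6 stromal markers was 27279 to 128615 CPM, and that of 6 leukocyte markers was at most 30.6 CPM. Piezo1, the floxed gene, was not called between genotypes in MmSCs after CTX or in SED. After CTX it was 53.1 ± 1.93 CPM in labelled mutants and 64.8 ± 4.83 CPM in labelled WT, lower in the mutants without overlap of libraries (log2 -0.28, edgeR adjusted p = 0.190). In SED it was 63.0 ± 15.6 against 43.4 ± 4.32 CPM (log2 0.54, adjusted p = 0.489). The genotypes are therefore named as labelled.

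EGF family ligands are made as membrane-anchored precursors and are released by metalloproteases such as ADAM17. Egfr binds all 5 ligands described here, and Hbegf, Btc and Ereg can also engage Erbb4. Erbb2 has no known ligand and works as a partner of the other receptors, while Erbb3 binds neuregulins and has little kinase activity of its own. Bound receptors pair and switch on the RAS-ERK and PI3K pathways, and ERK activity in turn induces inhibitors such as Errfi1, the sprouty proteins and the DUSP phosphatases. In regenerating muscle, amphiregulin is known as a product of regulatory T cells that acts on muscle stem cells.

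Ereg, Areg and Btc lie close together on mouse chromosome 5 in GENCODE M21 on mm10. Ereg spans chr5:91074622-91093646 on the plus strand. Areg spans chr5:91139599-91148432 on the plus strand, 45952 bases further on, and Btc spans chr5:91357261-91402994 on the minus strand, another 208.8 kb on. The other members are elsewhere. Tgfa is on 6 (86195223 to 86275719, plus), Egfr on 11 (16752203 to 16918158, plus), Erbb2 on 11 (98412470 to 98437716, plus) and Erbb3 on 10 (128567523 to 128589652, minus). All 8 are annotated as protein coding. A RefSeq table of promoters (GRCm38.p6) held 5 of the 8 genes. Ereg, Hbegf and Erbb3 are named only. The 250 bases before the start of the neighbours Areg (chr5:91139349-91139598, plus strand) and Btc (chr5:91402995-91403244, minus strand) are shown because both genes, with Ereg, were higher in MmSCs after CTX. Capitals mark matches, searched on both strands, to TGACGTCA (a cyclic AMP response element) or TGANTCA, the site of the AP-1 factors Fos and Jun. They also mark matches to the TATA box, searched as TATAAA.

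Areg: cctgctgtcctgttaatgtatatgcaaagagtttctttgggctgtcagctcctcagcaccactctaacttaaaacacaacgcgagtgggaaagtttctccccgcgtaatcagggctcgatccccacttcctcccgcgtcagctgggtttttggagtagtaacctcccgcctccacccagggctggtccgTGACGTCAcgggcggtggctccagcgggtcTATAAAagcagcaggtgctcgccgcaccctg
Btc: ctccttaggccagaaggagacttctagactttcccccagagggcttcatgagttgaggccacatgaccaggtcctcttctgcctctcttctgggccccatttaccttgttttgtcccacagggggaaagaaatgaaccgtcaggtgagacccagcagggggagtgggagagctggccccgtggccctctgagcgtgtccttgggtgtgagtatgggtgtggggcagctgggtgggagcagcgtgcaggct

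The Areg window held TGACGTCA, which reads the same on both strands, 61 to 54 bases before the start, and TATAAA on the plus strand, 31 to 26 bases before it. TGACGTCA stood in 1.55% of the 32851 windows of this length in the table, TGANTCA in 6.75% and TATAAA in 12.4%. The Btc window held none of these letters.

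Levels of different genes were compared per kilobase of exon. In MmSCs Egfr was the highest member in 40 of 44 libraries and Hbegf in the other 4. Among the ligands, Hbegf was highest in 39 of 44 MmSC libraries and in all 26 libraries of skeletal muscle, whereas Tgfa was highest in all 8 of liver. In SED labelled WT MmSCs the order of mean CPM per kilobase was Egfr 24.7 ± 3.14, Hbegf 7.05 ± 2.22, Erbb2 2.92 ± 0.152, Btc 0.493 ± 0.282, Ereg 0.445 ± 0.585, Areg 0.255 ± 0.357, Erbb3 0.104 ± 0.0478 and Tgfa 0.0513 ± 0.0718 (SD, n = 3). Egfr, Hbegf and Erbb2 were separate from the gene after them in every library, while Btc and each gene after it overlapped the next one. In day 1 CTX MmSCs Ereg stood second at 7.85 ± 1.47 (labelled WT) and 7.87 ± 3.96 (labelled mutant) CPM per kilobase, overlapping Hbegf and Areg. Liver of labelled WT mice had 47.2 ± 19.0 (23.2 to 69.1) for Egfr, which overlapped the 45.4 ± 7.66 of SED MmSCs in the EXT cohort, and 14.5 ± 4.42 for Erbb3. Quadriceps had 1.75 ± 0.0898 for Egfr, and heart had 3.46 ± 0.234 for Erbb3.

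**Figure D1:**
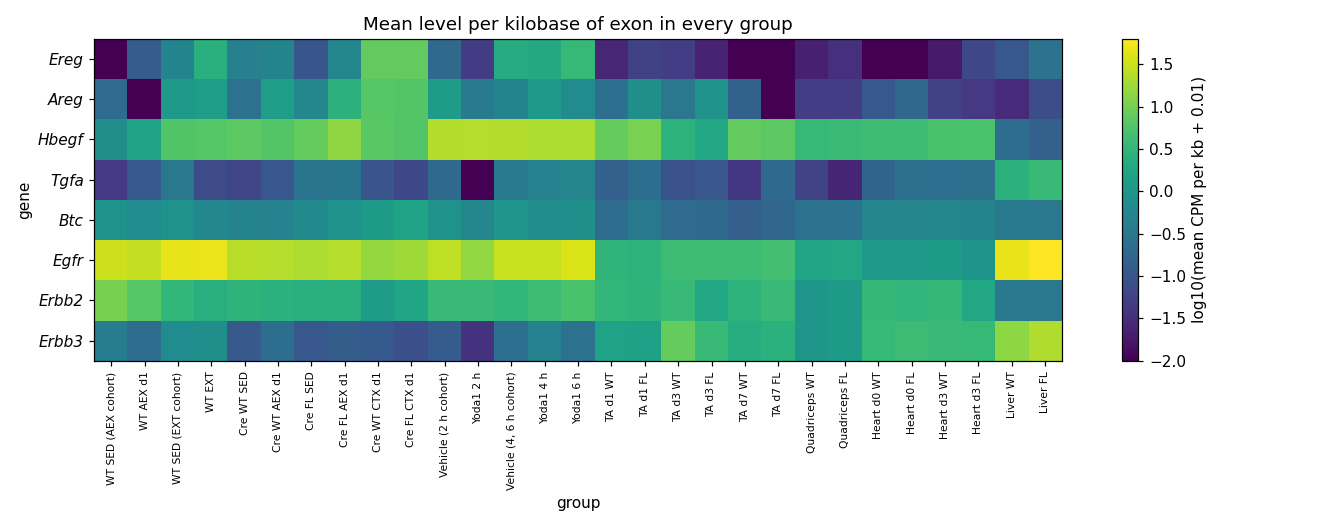
Mean CPM per kilobase of exon of the 8 genes (rows) in all 29 groups (columns), drawn as log10 of the value plus 0.01. Egfr is high in every MmSC group and in liver, and Ereg and Areg are highest in the day 1 CTX MmSCs. Erbb3 is highest in liver, followed by labelled WT TA on day 3 (mean 8.05). The heart groups and labelled mutant TA on day 3 have means of 3.46 to 4.01 for Erbb3.

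The 8 genes were tested in 29 comparisons by edgeR's quasi-likelihood test, with a gene called when its p-value, adjusted over all genes by the Benjamini-Hochberg method, was under 0.05. A filter on low counts left 191 of 232 possible tests, of which 27 were called. The share of all genes called ran from 0% to 52.7% over the 29 comparisons and is given with each below. Hbegf, Egfr and Erbb2 passed the filter in all 29 comparisons, Btc in 28, Tgfa in 24, Erbb3 in 22, Areg in 17 and Ereg in 13. Ereg was called in 5 comparisons, each time higher, and Tgfa in none. In 18 comparisons no member was called. Over their 115 tests, 10 had an unadjusted p under 0.05 and DESeq2 called 1. Among all genes in these comparisons, from 525 of 14534 (liver) to 4092 of 18433 (labelled mutant hearts between days) were at that unadjusted level.

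Acute exercise left no member called in wild-type MmSCs, where 0.736% of all genes tested were called. The closest was Erbb2, the partner receptor. It stood at 45.0, 64.2 and 53.4 CPM in the SED libraries and at 33.9, 36.9 and 31.9 CPM in the AEX libraries. The groups did not overlap, and the difference was log2 -0.66 ± 0.17 (SE; edgeR adjusted p = 0.0974). DESeq2 called it (adjusted p = 0.0467), as did edgeR without AEX replicate 1 (adjusted p = 0.0489). Summed stromal markers were 53797 to 54159 CPM in SED and 42219 to 43122 CPM in AEX, and their part in the Erbb2 result was not tested. Hbegf, a ligand released after cell stress, was 2.40, 4.67 and 3.66 CPM in SED and 2.97, 10.6 and 9.47 CPM in AEX. Those groups overlapped (log2 1.09 ± 0.47, adjusted p = 0.304), and without AEX replicate 1, the low one, Hbegf was called (log2 1.48, adjusted p = 0.0361). Egfr was 372 ± 91.2 in SED and 327 ± 40.4 CPM in AEX (adjusted p = 0.710). Btc was 3.92 ± 0.783 and 3.03 ± 0.691 CPM. Ereg counts were 0 in all 3 SED libraries and 0, 5 and 3 in AEX, and Areg counts were 2, 3 and 0 in SED and 0 in all AEX libraries, so neither could be compared at this depth. Of 45 other pathway genes tested, 1 was called: the ERK-induced gene Ier3, a stress response gene, rose from 26.9 ± 6.96 to 84.7 ± 23.4 CPM (log2 1.64 ± 0.23, adjusted p = 0.0206).

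In the Pdgfra-Cre cohort acute exercise also left no member called, in either genotype, against 0.992% of all genes in labelled WT and 0.162% in labelled mutants. No member reached an unadjusted p under 0.05 in either, and DESeq2 called none. Erbb2 was 15.2 ± 0.790 in SED and 13.9 ± 5.89 CPM in AEX labelled WT libraries, so the non-overlap of the first cohort was not seen here. That difference between the cohorts was not tested. In labelled mutants Hbegf was 20.6, 74.8 and 20.7 CPM in SED and 80.6, 122 and 13.1 CPM in AEX. A single SED library was high, a single AEX library was low, and the groups overlapped (log2 0.90 ± 0.76, adjusted p = 0.844). In labelled mutants Areg was highest in the library of each group in which Hbegf was highest, at 2.09 CPM (20 counts) in SED and 9.45 CPM (61 counts) in AEX, against at most 0.514 CPM in the other mutant libraries. The labelled WT libraries did not show this. There Areg was highest in replicate b of SED (0.805 CPM) and of AEX (2.71 CPM), and Hbegf in replicate c of both (46.5 and 34.8 CPM). In labelled mutants Ereg was 0.388 ± 0.491 in SED and 2.23 ± 1.42 CPM in AEX, with overlapping libraries (adjusted p = 0.638). The genotypes themselves were compared in SED and in AEX cells, where 0.00675% and 0% of all genes were called by edgeR, and no member was called by edgeR or by DESeq2 or had an unadjusted p under 0.05. With edgeR, 1094 and 814 genes had an unadjusted p under 0.05, and DESeq2 called 46 and 3 genes. The interaction of genotype with exercise called no gene with edgeR (0%, with 884 genes at an unadjusted p under 0.05) and 2 with DESeq2, none of them a member. Of 47 other pathway genes tested, 1 was called in labelled WT. It was Adam17, the main ligand sheddase, which fell (183 to 97.7 CPM, log2 -0.89 ± 0.16, adjusted p = 0.0123). In labelled mutants 1 other gene, of the RAS-ERK relay, was called higher. The interaction called 0 of the 47, so a difference between genotypes in these genes was not shown.

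After exercise training Ereg rose in MmSCs. Its level was 2.15, 2.06 and 2.21 CPM in the SED libraries and 13.1, 12.97 and 6.02 CPM in the EXT libraries. All trained libraries lay above all sedentary ones (fitted fold 4.97, log2 2.31 ± 0.36, adjusted p = 0.0153), with 43 to 92 counts a library against 14 or 15. It was the only member called of 7 tested, where 0.484% of all genes were called. The call was lost without EXT replicate 1 (adjusted p = 0.104), EXT replicate 2 (adjusted p = 0.0903) or SED replicate 2 (adjusted p = 0.0667), with log2 2.14 to 2.28. Areg, the neighbour of Ereg, was not called: it was 0.460, 1.78 and 1.92 CPM in SED and 2.33, 0.282 and 2.10 CPM in EXT (log2 0.17 ± 0.70, adjusted p = 0.962). Btc, at the far end of the group, was 4.04 ± 1.54 and 2.63 ± 2.13 CPM (adjusted p = 0.744). Egfr was 515 ± 86.8 and 560 ± 74.5 CPM, the highest levels of the receptor in any MmSC group. Of 46 other pathway genes none was called by edgeR.

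**Figure D2:**
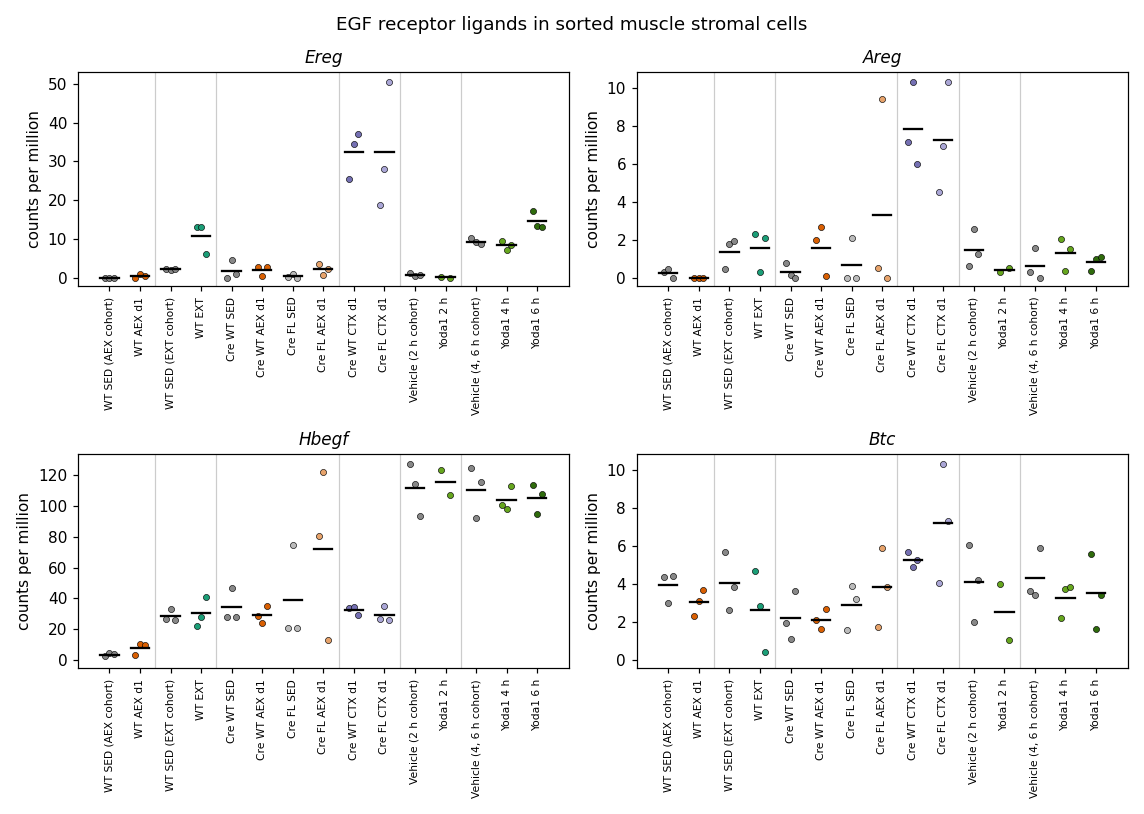
CPM of 4 ligands in every MmSC library (points) with the mean of each group (bar); vertical lines separate cohorts, each scaled by itself except that the Pdgfra-Cre SED, AEX and CTX libraries were scaled together. Ereg is 6.02 to 13.1 CPM after training against 2.06 to 2.21 in its controls and 18.7 to 50.6 CPM on day 1 after CTX, and Hbegf is 91.9 CPM or more in all cultured cells.

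Under Yoda1 Egfr was called in both cohorts, lower at 2 h and higher at 6 h, and Erbb2 was called only at 6 h. The difference between the cohorts was not tested. At 2 h Egfr, the receptor for all 5 ligands, fell. Vehicle libraries had 342, 293 and 302 CPM and the 2 treated libraries 170 and 180 CPM. The groups did not overlap, and the fitted treated level was 0.559 times that of vehicle (log2 -0.84 ± 0.15, adjusted p = 0.00717). It was the only member called of 4 tested, where 11.2% of all genes were called. The treated libraries were the shallower ones, with 3416913 and 1806248 counts against 4667436 to 5621061, and their summed stromal markers were 45761 to 51253 CPM against 53235 to 55342 CPM. The part of either in the result was not tested. The call was lost without vehicle replicate 1 (log2 -0.76, adjusted p = 0.0641) and without vehicle replicate 3 (log2 -0.86, adjusted p = 0.05004). Hbegf was 112 ± 17.1 in vehicle and 115 ± 11.6 CPM at 2 h, and Erbb2 was 19.2 ± 4.36 and 19.3 ± 7.66 CPM. Tgfa had 8, 6 and 5 counts in the vehicle libraries and 0 in both treated ones, where 3 counts would have been 0.925 and 1.60 CPM.

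At 4 h no member was called of 7 tested, by edgeR or DESeq2, with none at an unadjusted p under 0.05, while 5.71% of all genes were called. Egfr was 367, 344 and 322 CPM in vehicle and 363, 346 and 334 CPM at 4 h.

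At 6 h Egfr, Erbb2 and Ereg rose, 3 of 7 members tested where 13.2% of all genes were called. Egfr was 428, 425 and 451 CPM at 6 h, above every vehicle library (1.26-fold, log2 0.34 ± 0.06, adjusted p = 5.59e-05), and it remained called without any one library. Erbb2 was 15.1, 20.5 and 15.8 CPM in vehicle and 25.1, 25.0 and 29.5 CPM at 6 h. The groups did not overlap (1.55-fold, log2 0.63 ± 0.18, adjusted p = 0.0162). The call for Erbb2 was lost without vehicle replicate 1 (adjusted p = 0.0841), vehicle replicate 3 (adjusted p = 0.0666) or 6 h replicate 3 (adjusted p = 0.0967). Ereg was 10.3, 9.14 and 8.60 CPM in vehicle, 9.47, 7.25 and 8.44 CPM at 4 h and 17.3, 13.4 and 13.1 CPM at 6 h. The 6 h libraries lay above all others (1.57-fold over vehicle, log2 0.65 ± 0.22, adjusted p = 0.0453), yet the call was lost without each of the 6 libraries in turn (log2 0.50 to 0.72, adjusted p from 0.0598 to 0.237) and with DESeq2 (adjusted p = 0.0528). From 4 h to 6 h, where 10.9% of all genes were called, Ereg (log2 0.79 ± 0.23, adjusted p = 0.0182) and Egfr (log2 0.32 ± 0.06, adjusted p = 0.000185) rose. That call for Ereg was lost without 4 h replicate 2 (adjusted p = 0.0837) or 6 h replicate 1 (adjusted p = 0.124). The comparisons at 4 h and 6 h share the vehicle libraries. Summed stromal markers were 100724 to 109891 CPM in vehicle and 74493 to 78365.5 CPM at 6 h, and their part in these results was not tested.

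Hbegf was not called in either Yoda1 cohort, and lay between 91.9 and 127 CPM in every cultured library, with vehicle and treated libraries overlapping at each time. Freshly sorted MmSCs held 2.40 to 122 CPM, with 1 library inside the range of the cultured ones. Fresh and cultured cells came from different cohorts, so these are levels side by side with no test.

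Some other genes of the pathway were called under Yoda1, in both directions, and most were not. At 2 h, of 47 other pathway genes tested, 4 were called higher and 6 lower, where 11.2% of all genes were called (median log2 -0.26, against -0.03 over all genes). Spry2, an ERK feedback inhibitor, rose from 134 ± 19.6 to 585 ± 13.2 CPM (log2 2.13 ± 0.16, adjusted p = 0.000292), and Lrig1, which promotes receptor degradation, fell from 51.8 ± 9.60 to 19.1 ± 4.41 CPM (log2 -1.42 ± 0.30, adjusted p = 0.0136). The relay genes with the largest changes were Plcg1 (log2 -1.76), Sos2 (log2 1.53) and Shc1 (log2 -1.48), and among ERK-induced genes Ier3 fell (log2 -0.999), Myc rose (log2 0.86) and Fos fell (log2 -0.62). At 4 h 8 of 48 were higher and 1 lower, where 5.71% of all genes were called, and Map2k2 (log2 0.79) and Sos1 (log2 0.65) were among those that rose. At 6 h 7 of 48 were higher and 5 lower, where 13.2% of all genes were called (median 0.06, against 0.00 over all genes). The kinase gene Map2k2 (42.1 ± 8.91 to 79.1 ± 3.29 CPM, log2 0.91 ± 0.12, adjusted p = 3.76e-07) rose. Spry4, another feedback inhibitor, fell from 33.7 ± 1.02 to 18.8 ± 3.94 CPM (log2 -0.84 ± 0.16, adjusted p = 0.000162), Spry1 fell (log2 -0.58) and Errfi1, an inhibitor that binds the receptor kinase, rose (log2 0.41). Of the sheddases Adam12 rose (log2 0.46) and Adam17 fell (log2 -0.25). Among ERK-induced genes Fos (log2 -0.39) and Egr1 (log2 -0.31) fell and Ier3 rose (log2 0.20).

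**Figure D3:**
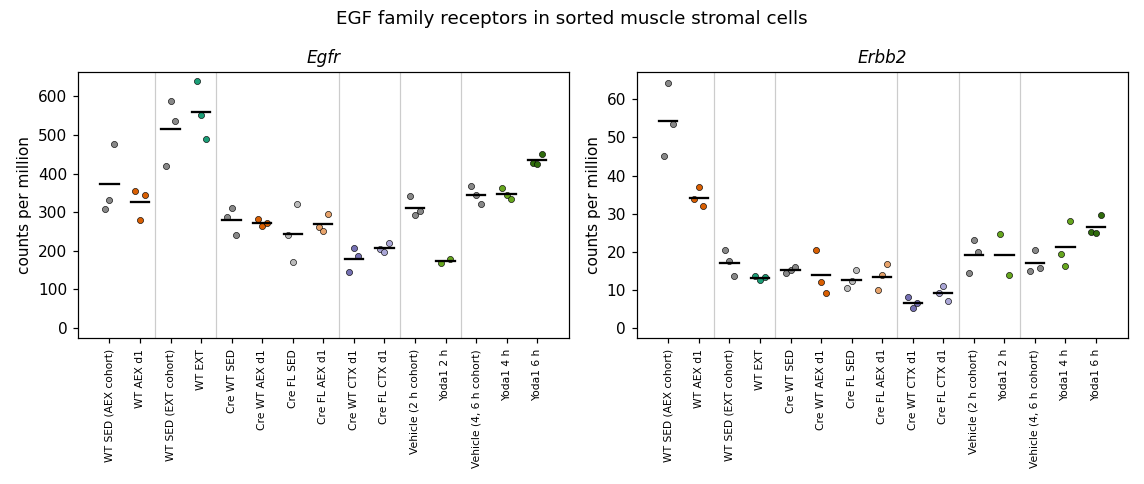
CPM of Egfr and Erbb2 in every MmSC library (points) with group means (bars). Egfr is 170 and 180 CPM at 2 h of Yoda1 against 293 to 342 in vehicle and 425 to 451 CPM at 6 h against 322 to 367, and Erbb2 is 45.0 to 64.2 CPM in the sedentary libraries of the AEX cohort and at most 29.5 CPM in every library outside that cohort.

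On day 1 after CTX, MmSCs of both genotypes held more Ereg than SED MmSCs of the Cre cohort. In labelled WT mice Ereg was 0.938, 0 and 4.57 CPM in SED and 25.6, 34.4 and 37.2 CPM after CTX, with 257 to 352 counts a library after CTX against 0 to 37. No libraries overlapped (fitted fold 17.6, log2 4.14 ± 0.85, adjusted p = 0.00109). In labelled mutants Ereg was 0.225, 0.940 and 0 CPM in SED and 18.7, 28.1 and 50.6 CPM after CTX (fitted fold 81.0, log2 6.34 ± 1.02, adjusted p = 0.000132). Both calls were kept without any one library, although with so few counts in SED both folds are imprecise. They ran from log2 3.54 to 6.16 in labelled WT and from log2 5.75 to 8.08 in labelled mutants. The CTX libraries had no SED group of their own cohort, so CTX and cohort cannot be told apart here. Of all genes tested 43.9% (labelled WT) and 44.6% (labelled mutant) were called in these comparisons, and the median log2 of all genes was -0.14 and -0.12. Members called were 5 of 8 in labelled WT and 2 of 8 in labelled mutants, shares to be read against that background. In these sorted cells, as in whole tissue, fewer cells of a type and less RNA per cell cannot be told apart.

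Areg, next to Ereg on the chromosome, also rose in labelled WT. It was 0, 0.806 and 0.124 CPM in SED (0, 7 and 1 counts) and 7.17, 10.3 and 6.02 CPM after CTX (57 to 104 counts). The groups were separate (log2 4.54 ± 1.62, adjusted p = 0.0345), and the call was lost without SED replicate a (adjusted p = 0.0971), SED replicate c (adjusted p = 0.104) or any 1 of the 3 CTX libraries (adjusted p from 0.0554 to 0.0789). In labelled mutants Areg was 0, 2.09 and 0 CPM in SED and 4.54, 6.98 and 10.3 CPM after CTX. These groups did not overlap either, and the test missed the threshold (log2 3.35 ± 1.44, adjusted p = 0.0742). Without SED replicate b, the library with 20 counts, it passed (adjusted p = 0.0176). Btc, the third gene of the group, rose in both genotypes. It went from 2.23 ± 1.28 to 5.28 ± 0.399 CPM in labelled WT (log2 1.25 ± 0.50, adjusted p = 0.0455) and from 2.88 ± 1.18 to 7.21 ± 3.15 CPM in labelled mutants (log2 1.32 ± 0.48, adjusted p = 0.0291). In labelled WT the Btc call was lost without SED replicate b or c or any 1 of the CTX libraries (adjusted p from 0.0727 to 0.177). In labelled mutants it was lost without SED replicate a (adjusted p = 0.121), CTX replicate 2 (adjusted p = 0.170) or CTX replicate 3 (adjusted p = 0.0628).

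The ligand with the highest level in SED cells, Hbegf, was not called after CTX. It was 34.1 ± 10.7 and 32.3 ± 2.96 CPM in labelled WT (log2 -0.08 ± 0.64, adjusted p = 0.936) and 38.7 ± 31.3 and 29.02 ± 5.10 CPM in labelled mutants (adjusted p = 0.628). Tgfa was at most 2.40 CPM in any of these libraries. Of the receptors Egfr and Erbb2 fell in labelled WT cells after CTX, while Erbb3 was 0.628 ± 0.287 and 0.652 ± 0.452 CPM. Egfr was 241, 289 and 310.5 CPM in SED and 145.5, 207 and 187 CPM after CTX, without overlap (log2 -0.64 ± 0.17, adjusted p = 0.00422). Erbb2 was 15.2 ± 0.790 and 6.63 ± 1.35 CPM (log2 -1.20 ± 0.30, adjusted p = 0.00219). Both were kept without any one library. In labelled mutants Egfr was 245 ± 74.4 and 207 ± 12.6 CPM (log2 -0.24 ± 0.17, adjusted p = 0.264), a difference called without SED replicate b (log2 -0.44, adjusted p = 0.0287), and Erbb2 12.7 ± 2.39 and 9.08 ± 2.01 CPM (adjusted p = 0.189). Within the CTX cohort, where both genotypes were sorted alike, 1.79% of all genes were called between them and no member of 6 tested was, with none at an unadjusted p under 0.05 and none called by DESeq2. The difference in Ereg there was log2 0.01 ± 0.38, in Areg -0.10 ± 0.30, in Btc 0.46 ± 0.31, in Egfr 0.21 ± 0.11 and in Erbb2 0.46 ± 0.24 (adjusted p of the last 0.436).

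Summed markers of leukocytes were lower in the CTX sort than in the SED sort, which is of another cohort. The 6 markers summed to 7.87 to 8.44 (labelled WT) and 8.97 to 10.3 CPM (labelled mutant) after CTX, against 12.4 to 14.6 and 15.6 to 22.2 CPM in SED, and 1 of the 6 was at 0 in each of these groups. Epithelial markers (4 genes) summed to at most 1.09 CPM after CTX. Stromal markers summed to 34171 to 40599.7 and 27279 to 32438 CPM after CTX, against 58589.6 to 128615 and 46358 to 57836 CPM in SED. The part of any of these marker lists in the results after CTX was not tested.

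Other genes of the pathway after CTX went both ways. In labelled WT, of 49 tested, 11 were higher and 12 lower, where 43.9% of all genes were called (median log2 0.09, against -0.14 over all genes). In labelled mutants 17 were higher and 13 lower, where 44.6% of all genes were called (median 0.31, against -0.12). For these genes too CTX and cohort cannot be told apart. The sheddase Adam12, which can release Hbegf, rose from 9.27 ± 7.17 to 129 ± 9.35 CPM in labelled WT (log2 3.78 ± 0.81, adjusted p = 0.00216) and in labelled mutants (3.91 to 121 CPM, log2 4.94 ± 0.88, adjusted p = 0.000538). Adam17 fell in labelled WT (log2 -0.53) as did Rhbdf1, a partner of ADAM17 in transport (log2 -0.84 in labelled WT and -1.13 in labelled mutants). Rhbdf2 fell in labelled mutants (log2 -1.70), and there the neuregulin gene Nrg1, a ligand of Erbb3, rose from 0.258 to 2.61 CPM (log2 3.31 ± 1.07, adjusted p = 0.0151). Feedback inhibitors split: in labelled WT 5 of 14 rose and 4 fell, with Dusp4 (0.424 to 3.83 CPM, log2 3.15 ± 0.80), Dusp5 (log2 1.90) and Spry2 (log2 1.32) rising most. Ier3 rose from 73.4 ± 27.1 to 687 ± 49.2 CPM (log2 3.23 ± 0.35, adjusted p = 1.11e-06), Phlda1 (log2 1.66) and Fosl1 (log2 0.93) rose as well, while Fos and Egr1 fell (log2 -0.68 and -0.70). In the relay Gab1 (log2 -1.27) and Plcg1 (log2 -1.24) fell in labelled WT.

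In whole TA muscle after CTX the members called between days were Hbegf, Areg and the 3 receptors. Ereg did not pass the filter, with at most 4 counts in any of the 20 libraries. Hbegf fell from day 1 to day 3 and rose again by day 7 in both genotypes. In labelled WT mice it was 29.9, 33.4, 42.9 and 49.5 CPM on day 1, 10.2, 11.4 and 19.3 CPM on day 3, and 42.2, 36.7 and 32.9 CPM on day 7. Day 3 lay below both other days in every library. The fall was log2 -1.51 ± 0.27 (adjusted p = 0.000165) and the rise log2 1.45 ± 0.28 (adjusted p = 0.000205). In labelled mutants it was 70.5, 50.8, 54.2 and 36.01 CPM on day 1, 6.39, 7.56 and 12.5 CPM on day 3, and 31.0, 43.8 and 25.9 CPM on day 7. Again no day 3 library reached those of the other days (fall log2 -2.56 ± 0.28, adjusted p = 1.21e-07, rise log2 1.90 ± 0.29, adjusted p = 7.20e-06). All 4 calls were kept without any one library. Endothelial markers (4 genes) were also lowest on day 3, summing to 428 to 522 CPM on day 1, 192 to 261 on day 3 and 434 to 527 on day 7 in labelled WT. In labelled mutants they summed to 493.5 to 531, 160 to 224 and 423 to 470.1 CPM. Muscle fibre markers (4 genes) summed to 67977 to 85650, 29749 to 49851 and 158375 to 195806 CPM on those days in labelled WT, and to 64297 to 104899, 3637 to 13463 and 143934 to 188959 CPM in labelled mutants. The part of either marker list in the Hbegf result was not tested. From day 1 to day 3, 26.8% of all genes were called in labelled WT, with 2 of 7 members, and 44.6% in labelled mutants, with 4 of 7. From day 3 to day 7 the shares were 42.5% with 2 of 7 and 52.7% with 3 of 7. The joint interaction of genotype with day was not called for Hbegf (adjusted p = 0.215). The pairs of comparisons share their day 3 libraries.

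Erbb3, the neuregulin receptor, moved the opposite way. In labelled WT it was 10.0, 6.03, 10.7 and 10.7 CPM on day 1, 37.7, 38.5 and 69.1 CPM on day 3, and 13.8, 10.9 and 17.0 CPM on day 7. The day 3 libraries were above all others, with a rise of log2 2.37 ± 0.28 (5.18-fold, adjusted p = 7.58e-07) and a fall of log2 -1.80 ± 0.30 (adjusted p = 3.32e-05). Labelled mutants had 10.8, 7.05, 8.86 and 9.21 CPM on day 1, 20.2, 16.4 and 29.6 CPM on day 3, and 12.9, 11.2 and 23.7 CPM on day 7. There the rise was log2 1.30 ± 0.28 (adjusted p = 0.000627) and the later difference missed the threshold (log2 -0.47 ± 0.30, adjusted p = 0.197), with day 7 overlapping day 3. Without day 7 replicate 3, its highest library, that fall was called (log2 -0.88, adjusted p = 0.0256). The other 3 calls for Erbb3 between days were kept without any one library. Summed markers of satellite cells and myoblasts (Pax7, Myod1, Myog and Myf5) were also highest on day 3. In labelled WT they were 188 to 286 CPM on day 1, 1172 to 1404 on day 3 and 170 to 249 on day 7. In labelled mutants they were 132 to 161, 877 to 1479 and 232 to 252 CPM. There day 7 lay below day 3 in every library, whereas Erbb3 overlapped. Markers of Schwann cells (6 genes), which are known to express Erbb3, summed to 52.1 to 82.1, 44.3 to 58.8 and 45.3 to 62.4 CPM on those days in labelled WT. In labelled mutants they summed to 63.6 to 103, 19.6 to 44.4 and 37.5 to 66.2 CPM. The part of either marker list in the Erbb3 result was not tested.

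On day 3 both Erbb2 and Erbb3 were lower in labelled mutants than in labelled WT, 2 of 7 members where 8.98% of all genes were called. Erbb3 had the values given above, without overlap (log2 -1.13 ± 0.29, adjusted p = 0.0146). Erbb2 was 13.7, 21.5 and 24.5 CPM in labelled WT and 12.3, 7.10 and 10.1 CPM in labelled mutants. The highest mutant library lay just below the lowest WT one (log2 -1.04 ± 0.28, adjusted p = 0.0220). The Erbb3 call was lost without WT replicate 3, its highest library (log2 -0.79, adjusted p = 0.181), mutant replicate 1 (adjusted p = 0.0517) or mutant replicate 2 (adjusted p = 0.0908). That for Erbb2 was lost without WT replicate 2 (adjusted p = 0.0699), WT replicate 3 (adjusted p = 0.152) or mutant replicate 2 (adjusted p = 0.128). Muscle fibre markers (4 genes) summed to 3637 to 13463 CPM in the day 3 mutants against 29749 to 49851 in labelled WT, and Schwann markers to 19.6 to 44.4 against 44.3 to 58.8, and their part in both results was not tested. Satellite cell markers overlapped (877 to 1479 against 1172 to 1404 CPM). No member was called between genotypes on day 1 (0.0774% of all genes called) or day 7 (0% called by edgeR or DESeq2, with 737 genes at an unadjusted p under 0.05). On day 1 no member had an unadjusted p under 0.05, on day 7 only Tgfa did (adjusted p = 1.00), and DESeq2 called none on either day. Across the 3 days the interaction called 3.89% of all genes and no member. An unadjusted p under 0.05 was reached by 3 of 7 members and by 2759 of 15499 genes tested. Adjusted p was 0.105 for Erbb2 and 0.115 for Erbb3, so a genotype difference particular to day 3 was not shown by the joint test. Without WT day 3 replicate 1 the interaction was called for Erbb2 (adjusted p = 0.0445), and without mutant day 3 replicate 3 for Erbb3 (adjusted p = 0.0479).

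**Figure D4:**
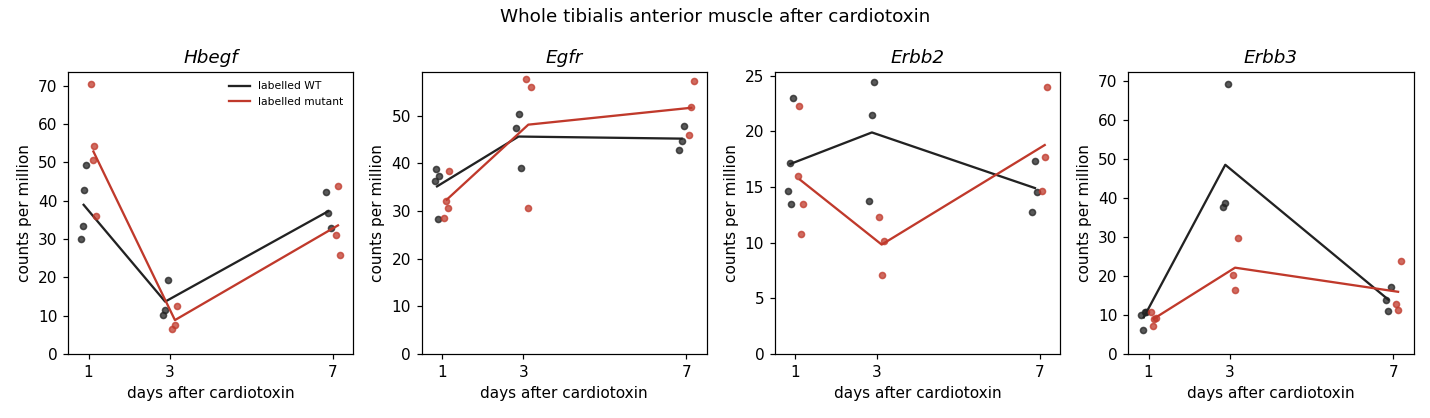
CPM of Hbegf, Egfr, Erbb2 and Erbb3 in whole TA muscle on days 1, 3 and 7 after CTX (points are libraries, lines join the means; black labelled WT, red labelled mutant). Hbegf is lowest on day 3 in both genotypes, Erbb3 peaks at 37.7 to 69.1 CPM in labelled WT on day 3, and Erbb2 dips to 7.10 to 12.3 CPM in the labelled mutants on that day.

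Within labelled mutants Erbb2 fell from day 1 (16.0, 22.3, 10.8 and 13.5 CPM) to day 3 (log2 -0.69 ± 0.27, adjusted p = 0.0413) and rose to 14.7, 17.7 and 24.0 CPM on day 7 (log2 0.96 ± 0.29, adjusted p = 0.00715). The fall rested on overlapping groups and was lost without day 1 replicate 1 (adjusted p = 0.0643), day 1 replicate 2 (adjusted p = 0.196), day 3 replicate 2 (adjusted p = 0.197) or day 3 replicate 3 (adjusted p = 0.0732). The rise was lost without day 7 replicate 3 (adjusted p = 0.0594). Labelled WT showed no called change in Erbb2, at 17.1 ± 4.21, 19.9 ± 5.54 and 14.9 ± 2.31 CPM (n = 4, 3 and 3). Egfr in labelled mutants was 28.4, 32.1, 30.6 and 38.3 CPM on day 1 and 57.7, 30.6 and 55.9 CPM on day 3. It was called higher (log2 0.57 ± 0.18, adjusted p = 0.0136), with 1 day 3 library inside the day 1 range, and the call was lost without day 3 replicate 1 (adjusted p = 0.0943) or replicate 3 (adjusted p = 0.0912). In labelled WT Egfr was 35.1 ± 4.76, 45.6 ± 5.96 and 45.2 ± 2.55 CPM (day 3 against day 1: log2 0.38 ± 0.18, adjusted p = 0.128). Areg in labelled mutants was 0.955 ± 0.725 CPM on day 1 and 1.03 ± 0.547 CPM on day 3, with 6 to 11 counts a library on day 3, and had 0 counts in all 3 libraries on day 7 (adjusted p = 0.00629). Against a floor of 3 counts per library (mean 0.493 CPM) it was at least 2.09-fold lower on day 7 than on day 3. In TA, Areg passed the filter on low counts only through mutant libraries of days 1 and 3, where it was highest. The call therefore rests on a gene kept by its high groups. In labelled WT Areg was 0.384 ± 0.280 and 0.170 ± 0.295 CPM on these days (adjusted p = 0.458). Tgfa and Btc were at most 2.85 CPM in every TA library and were not called between days, although without mutant day 3 replicate 3 Tgfa was called lower on day 3 than on day 1 (adjusted p = 0.0347) and higher on day 7 than on day 3 (adjusted p = 0.0492).

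Of 49 other pathway genes tested from day 1 to day 3, 17 were called in labelled WT, where 26.8% of all genes were called, and 15 of the 17 fell. In labelled mutants 23 were called, where 44.6% of all genes were called, and 17 of the 23 fell. In labelled WT 5 of 9 ERK-induced genes tested fell and none rose (median log2 -0.997, against 0.01 over all genes), with Ier3 (58.5 ± 11.7 to 6.24 ± 1.53 CPM, log2 -3.23 ± 0.36), Fosl1 (log2 -2.51) and Myc (log2 -1.76) the most. Of 14 feedback inhibitors 5 fell, led by Dusp5 (log2 -2.60), Spry2 (log2 -1.16) and Dusp4 (log2 -1.09), and none rose (median -0.53). In labelled mutants 5 ERK-induced genes fell, led by Ier3 (log2 -3.53), and Ccnd1 rose (log2 0.86), while 5 feedback inhibitors fell, led by Lrig1 (24.3 ± 6.46 to 3.81 ± 0.762 CPM, log2 -2.70 ± 0.29, adjusted p = 8.48e-08). From day 3 to day 7 in labelled WT 5 of the 49 were higher and 13 lower, where 42.5% of all genes were called. The sheddase group fell, 6 of 7 tested, led by Frmd8 (log2 -1.15), Adam12 (log2 -0.95) and Adam17 (log2 -0.85). Egf, the founding ligand of the family, rose from 13.5 to 28.3 CPM (log2 1.07 ± 0.34, adjusted p = 0.0140). Fosl1 (log2 -3.36), Ccnd1 (log2 -1.33) and Myc (log2 -0.75) fell. In labelled mutants 10 of the 49 were higher and 18 lower from day 3 to day 7, where 52.7% of all genes were called. There 5 of the 7 genes of the sheddase group fell. Between genotypes on day 3, 4 of 49 pathway genes were higher in labelled mutants and 2 were lower, where 8.98% of all genes were called. Among the higher ones were Fosl1 (log2 1.36), Myc (log2 0.76) and Nras (log2 0.54). The lower ones were Lrig1 (3.81 ± 0.762 against 13.3 ± 3.40 CPM, log2 -1.82 ± 0.30, adjusted p = 0.000442) and Egf (4.26 ± 1.73 against 13.5 ± 3.55 CPM, log2 -1.63 ± 0.37, adjusted p = 0.00717). Lrig1 was also the only one of the 49 called in the interaction with day (adjusted p = 0.00688), where 3.89% of all genes were called. Leukocyte markers (6 genes) summed to 782 to 1024 CPM on day 1, 1491 to 2025 on day 3 and 227 to 384 on day 7 in labelled WT, and their part in these changes was not tested.

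**Figure D5:**
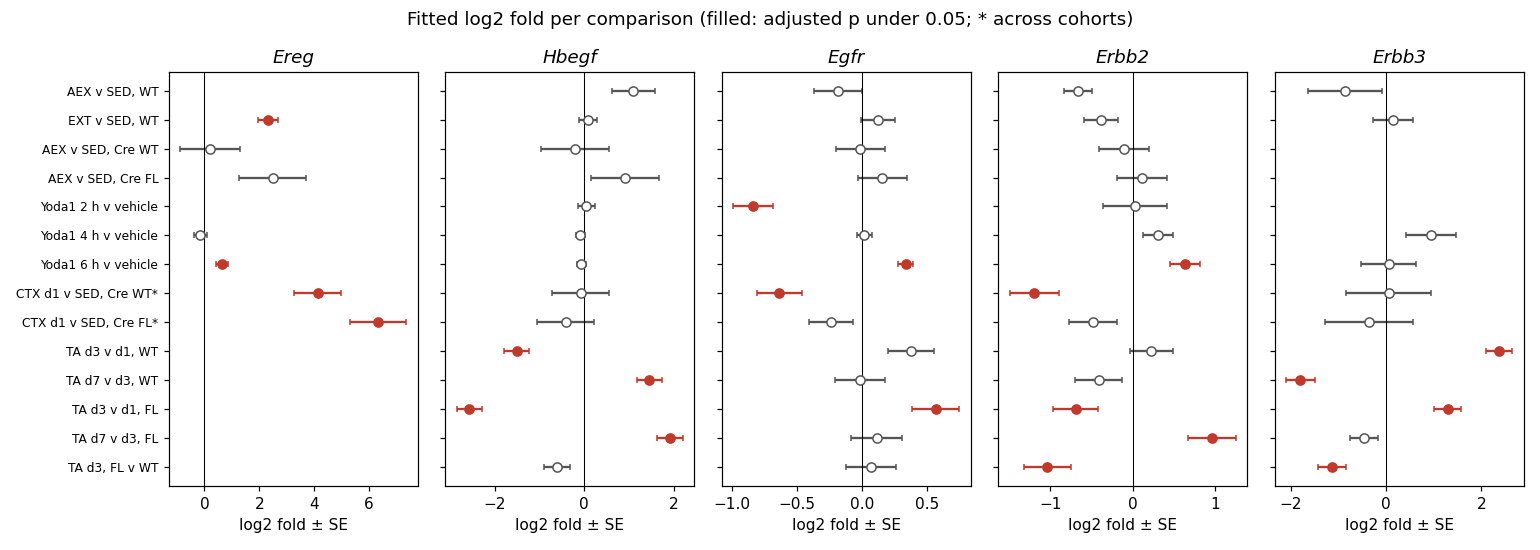
Fitted log2 fold ± SE of 5 genes in 14 comparisons, with called genes filled in red, and with a different x axis in each panel; a gene that did not pass the filter has no point. Ereg is called higher in EXT, Yoda1 at 6 h and both CTX comparisons, while Hbegf and Erbb3 have opposite signs in the first 2 TA comparisons.

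Uninjured quadriceps, which is another muscle in another cohort and so no control for TA, had Hbegf at 17.2 ± 2.81, Egfr at 19.8 ± 1.02, Erbb3 at 6.13 ± 2.25 and Erbb2 at 5.31 ± 1.403 CPM in labelled WT. None of the 4 members tested there was called between genotypes, with 0% of all genes called by edgeR or DESeq2, no member at an unadjusted p under 0.05, and 771 genes at that level. In heart Hbegf, Erbb3 and Erbb2 were 19.96 ± 0.582, 20.8 ± 1.41 and 17.8 ± 2.32 CPM in uninjured labelled WT mice, and Egfr was 12.4 ± 3.13 CPM. Per kilobase of exon Hbegf was the highest member there, at 4.13 ± 0.120, above Erbb3 at 3.46 ± 0.234 without overlap of libraries. No member was called in the 4 heart comparisons or their interaction. All genes called were 0% between genotypes without injury, 3.92% between genotypes on day 3, 0.103% from day 0 to day 3 in labelled WT, 4.75% in labelled mutants and 0% for the interaction. Each tested 6 members. Between genotypes on day 3, 1 member had an unadjusted p under 0.05, as did 3982 of 18433 genes. In labelled mutants between the days 2 members did, as did 4092 genes, and in the other 3 comparisons no member did. DESeq2 called no member in any. Over all genes it called 10 between genotypes without injury and 121 in the interaction, where edgeR had 778 and 2085 genes at an unadjusted p under 0.05. Erbb2 on day 3 was 18.6, 19.7 and 14.5 CPM in labelled WT hearts and 15.1, 8.81 and 5.37 CPM in labelled mutant hearts, with 1 mutant library inside the WT range (log2 -0.85 ± 0.32, adjusted p = 0.138). Without that library, mutant day 3 replicate 1, it was called (log2 -1.32, adjusted p = 0.0151), as was the fall from day 0 in labelled mutants (log2 -1.22, adjusted p = 0.0198). Day 0 and day 3 hearts are separate cohorts per the labels.

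In liver Egfr was 581, 262, 783 and 512 CPM in labelled WT and 641, 694, 735.5 and 807 CPM in labelled mutants. The groups overlapped, with a wide spread in WT (log2 0.43 ± 0.25, adjusted p = 0.999). Erbb3 was 87.0 ± 26.6 and 134 ± 41.5 CPM (log2 0.62 ± 0.26, adjusted p = 0.999), and Tgfa was 18.04 ± 4.12 and 24.1 ± 7.17 CPM (n = 4). No gene was called between genotypes by edgeR (0%, with 525 genes at an unadjusted p under 0.05, Erbb3 the only member among them), and DESeq2 called 14 genes and no member.

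Genes most like 3 members across the 44 MmSC libraries are given as a description, by Pearson's r of log2(CPM + 1) after subtracting each cohort's mean, among 8212 genes with a mean of at least 10 CPM. Libraries of a cohort share preparation and depth, and differences of stimulus within a cohort stay in these values. The CTX libraries were centred as a cohort of their own, so their difference from SED is not in these values. For Egfr the highest were Trim11 (0.81), Zfp322a (0.74) and Dhx33 (0.73). For Hbegf they were Itpk1 (0.55), Tnfrsf12a (0.51) and Mak16 (0.51), and for Erbb2 Nsd1 (0.61), Timm29 (0.61) and Zfand2b (0.57). The other members had means under 10 CPM over these libraries. Between members, and without the difference of CTX from SED, r was 0.39 for Areg with Hbegf, 0.29 for Ereg with Egfr and -0.05 for Ereg with Areg, all weak.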

How the data were processed

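Per the labels' protocols, 1000 sorted cells or 2 ng of whole-tissue RNA went into each library. Per the submitters' processing notes, STAR 2.7.3a, mm10 and featureCounts were used. The sources used here do not give the strandedness of counting, the featureCounts version or the handling of reads that overlap several genes. Raw read counts per gene symbol, as deposited by the authors in 90 columns, were used unchanged. For 12 Pdgfra-Cre SED and AEX columns, titles and library names disagree, so they were tied to their group only and their replicates are called a, b and c. Replicates differed by at least 2.61 in chi-square per gene, above sampling noise, and all were kept as separate libraries.

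Each cohort was fitted in R 4.3.3 with edgeR 4.0.16 (filterByExpr at a minimum count of 10, TMM, robust quasi-likelihood test), with Benjamini-Hochberg adjustment over every gene tested. CTX against SED used all 18 Pdgfra-Cre MmSC libraries. CPM used the TMM scaling of the cohort, for those 18 libraries jointly. Interactions over the 3 TA days were tested jointly. CPM per kilobase divided by the union of GENCODE M21 exons. Nothing says whether replicates are separate mice, so p-values measure the spread between these libraries. The genes named were the 8 members, up to 3 called genes with the largest fold of each pathway list, and, for likeness, the 3 genes with the highest r, a rule that also set the minimum of 10 CPM; a few further called pathway genes were named after their values were seen. Members and lists were chosen with earlier results of these data known. Alternatives were DESeq2 1.42.0, RLE scaling, no filter, each library left out and a replicate block. The tests were checked on simulated data. No column was left unused. Values of a few pathway genes are not reported here.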

Additional observations from a re-analysis of the deposited data

Results flagged for a closer look

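Among 32 pairs of a member and a group of 4 libraries, 2 had a library far from the other 3, where chance alone gives about 1 in 20. Erbb3 in TA of labelled WT mice on day 1 was 6.03 CPM in replicate 2 and 10.0 to 10.7 CPM in the other 3. Erbb2 in liver of labelled WT mice was 4.42 CPM in replicate 4 and 0.404 to 1.06 CPM in the others. Egfr moved in opposite directions under Yoda1 at 2 h (log2 -0.84, both treated libraries below the vehicle mean) and at 6 h (log2 0.34, all 3 above it). The 2 times come from different cohorts with their own vehicle libraries, and the difference between them was not tested.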

How the results depend on the processing

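Over 442 settings of the 40 pairs of a member and a comparison with an unadjusted p under 0.05, none changed direction. For the 27 called pairs, 219 settings kept the call and 49 lost it; for the others, 17 settings made a call. The number of members called in wild-type AEX went from 0 to 1 (Erbb2) with DESeq2 and to 1 without the filter; in CTX against SED labelled WT it went from 5 to 3 without the filter; without the filter it went to 3 in the TA interaction (Hbegf, Erbb2, Erbb3), and to 1 (Erbb2) in each of 2 heart comparisons, genotype on day 3 and labelled mutants from day 0 to day 3. Whether same replicate numbers pair the samples was not settled. The lowest correlation of deviations between same-numbered libraries was negative in every cohort checked, at -0.161 in TA. With so few libraries in a group this cannot exclude pairing. The mean correlation for same numbers ran from -0.043 in the 2 h Yoda1 cohort to 0.070 in liver, against 0.022 and -0.023 for other numbers. With the replicate number as a block, members called went from 1 to 0 at 2 h of Yoda1 (Egfr adjusted p = 0.0678), from 0 to 1 in the TA interaction (Erbb3) and from 0 to 1 (Erbb2) in the same 2 heart comparisons; Ereg at 6 h (adjusted p = 0.0501) and the fall of Erbb2 in mutant TA (adjusted p = 0.0841) were also lost. The block could not be fitted where replicates are tied to a group only. The causes were not tested. Leaving out each library gave 0 to 2 members called in wild-type AEX, 0 to 1 in EXT, at 2 h, in the TA interaction and in those 2 heart comparisons, 1 to 2 at 6 h and from 4 h to 6 h, 3 to 4 and 1 to 4 in CTX against SED of labelled WT and mutants, 3 to 4 in mutant TA from day 1 to 3 and from day 3 to 7, and 0 to 2 for genotype on day 3 in TA. Where a lone library remained in an arm, it was assumed to vary like the other groups. Counts over all genes moved by more than 1.5 times as follows. DESeq2 called 428 against 94 for edgeR in wild-type AEX (196 and 33 of them higher), 213 against 62 in EXT, 442 against 147 and 78 against 24 in AEX of labelled WT and mutants (for the latter 61 and 22 higher), 46 against 1 and 3 against 0 between genotypes in SED and AEX, 2 against 0 in their interaction, 47 against 12 between genotypes in TA on day 1 (13 and 0 higher), 1071 against 603 in the TA interaction, 10 against 0 and 1811 against 722 between genotypes in heart without injury and on day 3, 81 against 19 and 1911 against 875 between days in WT and mutant hearts, 121 against 0 in the heart interaction and 14 against 0 in liver. Without the filter the counts in that order were 650, 344, 398, 119, 111, 20, 15, 92, 1208, 58, 1457, 122, 1643, 338 and 1, with 586 against 232 between genotypes after CTX, 10 against 0 in TA on day 7 and 20 against 0 in quadriceps. With the block they were 19 in EXT, 460 against 1437 at 2 h of Yoda1, 1358 and 1419 in the 2 heart comparisons and 110 in the heart interaction. Without the filter the median log2 of all genes was 0.13 in wild-type AEX and -0.37 at 2 h. Low counts limit Areg, Tgfa and, outside the CTX sort, the EXT cohort and the 4 h and 6 h Yoda1 cohort, Ereg.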
